A study of Saccharomyces cerevisiae with 20 samples.

Results

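The transcripts followed here are those of 37 Saccharomyces cerevisiae genes for sulfate assimilation and for the metabolism of cysteine and methionine. A gene was taken as a member when its symbol stood in the platform annotation of a probe set, the set of short probes by which the array reports a transcript. All 37 genes had at least 1 probe set, in total 43 of the 9335 features on the array, and all 37 passed the filter on low signals. The 6 role groups were sulfate uptake and assimilation (10 genes), homocysteine and methionine synthesis with its folate cofactor (6 genes), transsulfuration (4 genes), the methyl cycle and methionine salvage (6 genes), transport of organic sulfur compounds (5 genes) and regulators (6 genes). The study asked how oxygen availability affects the survival of yeast in stationary phase (SP), and it followed batch cultures of the haploid strain CEN.PK113-7D (MATa MAL2-8C SUC2) at 30 °C and pH 5.0 in a synthetic medium that held glucose at 20 g/L. Samples of aerobic cultures, sparged with air, were taken in exponential growth on glucose (expo), late expo, the diauxic shift at glucose exhaustion, the post-diauxic phase of growth on fermentation products, early SP and late SP. Samples of anaerobic cultures, sparged with nitrogen, were taken in expo, end expo, early SP and late SP. Only the anaerobic medium held 10 mg/L ergosterol and 420 mg/L Tween 80, added in ethanol, so that oxygen and these growth factors cannot be told apart in any comparison of the regimes. The paper set the onset of SP at glucose exhaustion in anaerobic cultures, but in aerobic cultures at exhaustion of ethanol and organic acids too. Comparisons of the regimes in SP therefore also differ by the post-diauxic phase, which cannot be told apart from oxygen there. Each of the 10 conditions had 2 cultures, which gave 20 arrays.

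Yeast takes up sulfate through plasma membrane permeases, activates it with ATP and reduces it over sulfite to sulfide, which is joined to O-acetylhomoserine to give homocysteine. Homocysteine is methylated to methionine or passed through cystathionine to cysteine, and methionine feeds S-adenosylmethionine, the methyl donor whose spent form is recycled to homocysteine. The pathway is known for shared transcriptional control by Met4, an activator that reaches DNA through Cbf1, Met28, Met31 and Met32 and is held back by the ubiquitin ligase subunit Met30 when sulfur amino acids are plentiful.

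Signals are the linear values of the deposited table, scaled by the authors to a common average (trimmed mean 240.2 to 240.3 on all 20 arrays), with values below 12 set to 12 for logarithms only. Because every array was scaled to the same mean, a lower signal shows a lower share of the RNA, and fewer cells with a transcript cannot be told apart from less of it per cell. Signals of different genes come from different probes and are not set against each other. The 2 arrays of a condition correlated with r = 0.963 to 0.993, and the number of features below 12 was 1823 and 1847 in aerobic late SP against 2279 to 2822 on the other 18 arrays. Transcripts known from anaerobic cells marked the regimes, with 8 of 9 lower in aerobic than in anaerobic expo and 9 of 9 lower in both SP comparisons, and 7 of 7 transcripts known from respiratory growth on non-fermentable carbon were higher in aerobic SP. Aerobic culture 2 nevertheless held more of some anaerobic transcripts than aerobic culture 1, for example DAN1 with a signal of 930.1 against 1.4 in late SP and 159.6 against 4.7 in expo, while in late expo both stayed near the floor (11.2 and 12.1). Results were therefore also computed with aerobic culture 1 alone. That setting leaves 1 array in each aerobic condition, so the spread comes from the anaerobic conditions alone. Calls kept in it do not show that aerobic cultures agree. A difference was called at an adjusted p below 0.05 (limma, Benjamini-Hochberg over the 6067 tested probe sets) and at least 2-fold, which is 1 on the log2 scale.

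The members varied more over the 10 conditions than most transcripts did. The median range of the condition means was 2.71 on the log2 scale, against 1.89 over all tested probe sets, and 29 of 37 members ranged over more than 2, against 46.3% of all tested probe sets. Of the 37 members, 16 had their lowest mean in aerobic late SP (20.0% of all tested probe sets) and 8 in aerobic early SP (5.5%), whereas 6 were lowest in anaerobic end expo (8.92%). YCT1, the cysteine transporter, had the widest range, 5.26, followed by CYS3 with 4.57, ADI1 with 4.36 and MET14 with 4.35. MET12 had the narrowest, 0.51. Over the 12 comparisons of conditions, 34 members were called at least once, and MET12, CYS4 and CBF1 never were. The share of all tested probe sets called at least once was not computed. Anaerobic early SP against end expo alone called 47.7% of them, so the 34 do not set the members apart.

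**Figure D1:**
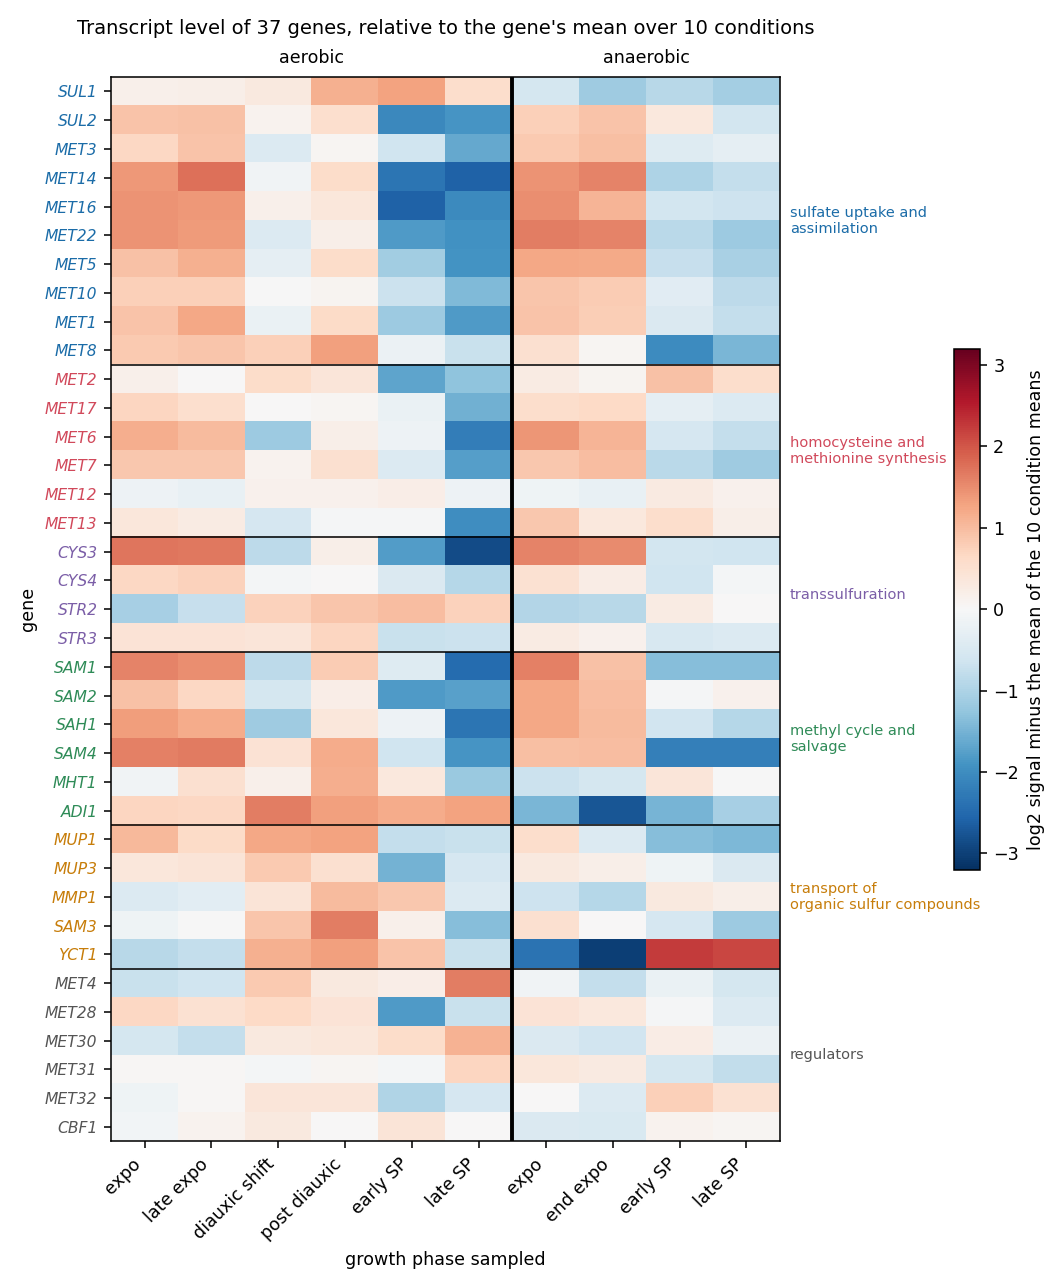
Heat map of the 37 members (rows, by role group) over the 6 aerobic and 4 anaerobic conditions (columns); colour is the mean log2 signal of 2 cultures minus the gene's mean over the 10 conditions. Most genes for sulfate assimilation and the methyl cycle are red in both exponential phases and blue in SP, deepest in aerobic late SP, while SUL1, STR2, ADI1, YCT1 and MET4 take other courses.

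In the sulfate group, the 3 members with the widest ranges were MET14, MET16 and MET22. MET14 encodes adenylylsulfate kinase, the second step of sulfate activation. In aerobic cultures its signals were 1659 and 2329 in expo, 2777 and 2324 in late expo, 656 and 748 in the diauxic shift, 1059 and 1224 in the post-diauxic phase, 142 and 156 in early SP and 96.5 and 162 in late SP. In anaerobic cultures they were 1769.8 and 2355 in expo, 2098 and 2463 in end expo, 436 and 332 in early SP and 475 and 419 in late SP. All 8 exponential signals lay above all other signals of MET14, and the SP signals of the regimes did not overlap, those of aerobic cultures being lower. MET16 encodes the reductase that turns the activated sulfate into sulfite. Its aerobic signals were 837 and 798 in expo, 871 and 727 in late expo, 348 and 330.3 in the diauxic shift, 351 and 429 in the post-diauxic phase, 47.8 and 52.7 in early SP and 55.7 and 99.7 in late SP. Its anaerobic signals were 801 and 894 in expo, 628 and 662 in end expo, 196 and 205 in early SP and 188 and 194 in late SP. Here too aerobic SP lay below anaerobic SP without overlap, although aerobic late SP culture 2 stood between the others. MET22 removes the nucleotide by-product of that reduction. Aerobic signals of MET22 were 1236 and 1246 in expo, 1139 and 1239.6 in late expo, 347 and 339 in the diauxic shift, 535 and 509 in the post-diauxic phase, 129 and 134 in early SP and 87.6 and 167 in late SP. Anaerobic signals of MET22 were 1471 and 1394 in expo, 1378 and 1417 in end expo, 253 and 259 in early SP and 196 and 214 in late SP. Its levels in aerobic and anaerobic SP were closer than those of MET14 and MET16, with log2 differences between the regimes of -0.96 in early and -0.76 in late SP, neither of which was called.

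The pair of sulfate permeases, Sul1 and Sul2, took opposite courses from aerobic expo to early SP. SUL1 had aerobic signals of 907 and 609 in expo, 585 and 975 in late expo, 780.1 and 869 in the diauxic shift, 1534 and 1363 in the post-diauxic phase, 1827 and 1452 in early SP and 791 and 1228 in late SP. Its anaerobic signals were 415 and 486 in expo, 320.3 and 280.3 in end expo, 355 and 363 in early SP and 313 and 308 in late SP. In each phase the aerobic signals of SUL1 lay above the anaerobic ones, with no overlap. SUL2 signals in aerobic cultures were 863 and 1005 in expo, 938 and 942 in late expo, 533 and 536 in the diauxic shift, 769.5 and 666 in the post-diauxic phase, 126 and 109 in early SP and 137 and 130.3 in late SP. In anaerobic cultures SUL2 gave 861 and 815 in expo, 1006 and 859 in end expo, 619.7 and 631 in early SP and 368 and 293 in late SP. SUL2 was thus close between the regimes in exponential growth and lay lower, without overlap, in aerobic than in anaerobic SP. MET8, which completes siroheme, the cofactor of sulfite reductase, lay, like SUL1, higher in aerobic than in anaerobic early SP, with signals of 69.9 and 90 in aerobic early SP and 25.6 and 19.1 in anaerobic early SP. The remaining members, MET3 (ATP sulfurylase), MET5 and MET10 (the subunits of sulfite reductase) and MET1 (the methyltransferase of siroheme synthesis), had their lowest mean in aerobic late SP, with ranges of 2.30 to 3.16 on the log2 scale.

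**Figure D2:**
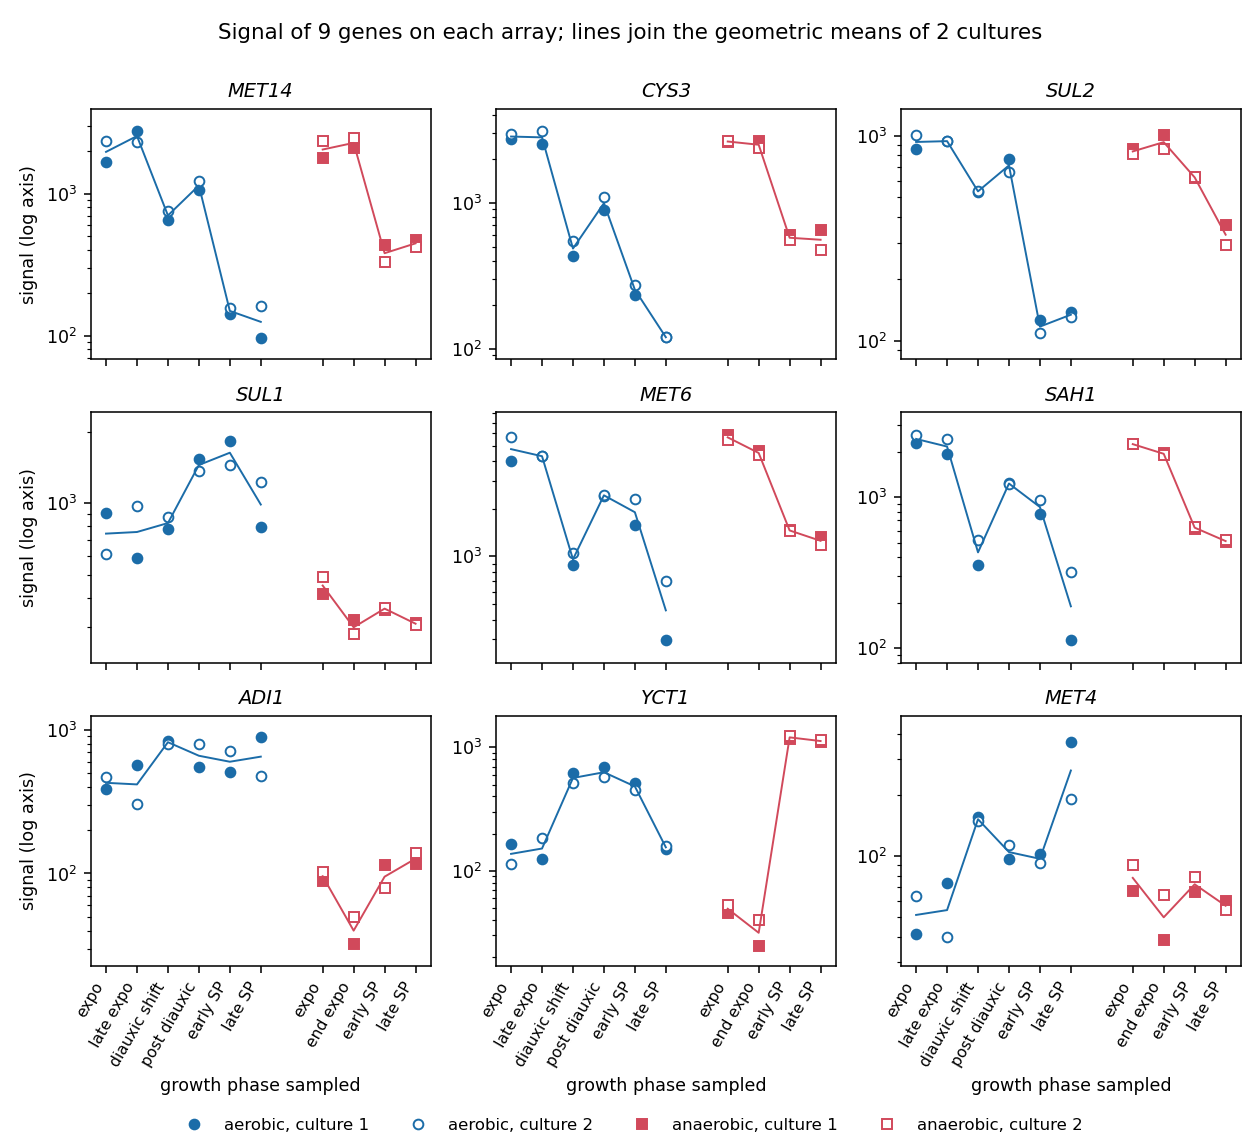
Signal on each of the 20 arrays (log axis) for 9 members, by growth phase; circles are aerobic and squares anaerobic cultures, filled for culture 1 and open for culture 2, and lines join the geometric means of 2 cultures with signals below 12 set to 12. MET14, CYS3 and SUL2 lie lower in aerobic than in anaerobic SP, SUL1 and ADI1 lie higher in aerobic cultures in every shared phase, and in aerobic late SP the 2 cultures of MET6 (297 and 702) and SAH1 (113 and 318) lie apart.

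Among the genes for homocysteine and methionine synthesis, MET6, MET13 and MET7 ranged most. MET6 encodes methionine synthase. Its aerobic signals were 3998 and 5653 in expo, 4301 and 4277 in late expo, 879 and 1046 in the diauxic shift, 2401 and 2459 in the post-diauxic phase, 1571 and 2300.3 in early SP and 297 and 702 in late SP. Its anaerobic signals were 5826 and 5460.1 in expo, 4627 and 4369.5 in end expo, 1479 and 1439 in early SP and 1336 and 1179 in late SP. The diauxic shift lay below both neighbouring aerobic phases on both cultures, and aerobic late SP was the lowest condition with its cultures far apart. MET13 encodes the main methylenetetrahydrofolate reductase, which supplies the methyl group. In aerobic cultures MET13 gave 871 and 862 in expo, 744 and 889 in late expo, 487 and 449.7 in the diauxic shift, 596 and 733 in the post-diauxic phase, 793 and 549.5 in early SP and 154 and 190.0 in late SP. In anaerobic cultures MET13 gave 1279 and 1169 in expo, 862 and 855 in end expo, 999 and 1005 in early SP and 848 and 696 in late SP. Anaerobic SP stayed close to anaerobic end expo, whereas aerobic late SP lay below all other aerobic samples. MET7 adds the glutamate chain to folates. MET7 read 594 and 545 in expo, 549 and 584 in late expo, 319 and 351 in the diauxic shift, 487 and 414 in the post-diauxic phase, 253 and 207 in early SP and 76.9 and 111 in late SP in aerobic cultures. The anaerobic readings of MET7 were 602 and 528 in expo, 653 and 589 in end expo, 154 and 194 in early SP and 149 and 137 in late SP. Its low point was aerobic late SP, below anaerobic late SP without overlap. MET2, the homoserine acetyltransferase that supplies the carbon skeleton, had its highest mean in anaerobic early SP and its lowest in aerobic early SP, with signals of 278 and 266 in aerobic early SP and 1607 and 1722 in anaerobic early SP and of 384 and 336 in aerobic late SP and 1299 and 1287 in anaerobic late SP. MET17, which joins sulfide to that skeleton, gave 1444 and 1963 in aerobic late SP and 3583 and 3647 in anaerobic late SP. MET12, the second methylenetetrahydrofolate reductase, stayed between 199 and 340.3 on all 20 arrays.

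Transsulfuration runs in both directions. CYS3 and CYS4 act towards cysteine, and STR2 and STR3 act from cysteine back towards homocysteine. CYS3, cystathionine gamma-lyase, gave aerobic signals of 2730.0 and 2948 in expo, 2526 and 3104 in late expo, 428 and 549 in the diauxic shift, 897 and 1095 in the post-diauxic phase, 234 and 274 in early SP and 119 and 120.0 in late SP. Anaerobic signals of CYS3 were 2596 and 2651 in expo, 2627 and 2364 in end expo, 597 and 553 in early SP and 650.0 and 477 in late SP. Both aerobic SP samples lay below anaerobic SP without overlap. STR2, cystathionine gamma-synthase, took the reverse course in aerobic cultures, with 84.7 and 76 in expo, 95.6 and 102 in late expo, 279.6 and 275 in the diauxic shift, 371 and 251 in the post-diauxic phase, 394 and 276 in early SP and 287 and 264 in late SP. STR2 in anaerobic cultures was 78.5 and 96.9 in expo, 99.6 and 80 in end expo, 200.4 and 201 in early SP and 158 and 179 in late SP. All SP signals of STR2 lay above all exponential ones. CYS4, cystathionine beta-synthase, gave 1088 and 1278 in expo, 1397 and 1091 in late expo, 631 and 795 in the diauxic shift, 728 and 780.1 in the post-diauxic phase, 484 and 604 in early SP and 396 and 393 in late SP in aerobic cultures. In anaerobic cultures CYS4 gave 1021 and 1070.3 in expo, 1102 and 704 in end expo, 655 and 349 in early SP and 747 and 679 in late SP, and the anaerobic cultures lay far apart in end expo and early SP. STR3, cystathionine beta-lyase, ranged over 1.39 on the log2 scale and was lowest in aerobic early SP.

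In the methyl cycle and salvage group, ADI1, SAM1 and SAM4 had the widest ranges. SAM1 and SAM2 encode near-identical S-adenosylmethionine synthetases, each read here by a probe set of its own. SAM1 signals in aerobic cultures were 1014 and 1362 in expo, 1051 and 1163 in late expo, 205 and 241 in the diauxic shift, 667 and 710.4 in the post-diauxic phase, 290.3 and 298 in early SP and 53.5 and 95.6 in late SP. SAM1 signals in anaerobic cultures were 1122 and 1292 in expo, 727 and 771 in end expo, 151 and 157 in early SP and 159 and 151 in late SP. The 2 regimes changed order, as aerobic early SP lay above and aerobic late SP below the anaerobic samples of the same name. The early SP difference of SAM1 (0.93 on the log2 scale) was not called. The probe set it shares with SAM2 went the other way there (-0.72, not called). SAM2 gave 231 and 350.1 in aerobic early SP and 1127 and 829.9 in anaerobic early SP, and 220.4 and 407 in aerobic late SP and 1161 and 1023 in anaerobic late SP. SAM2 was lower in aerobic SP at both times. SAH1, the hydrolase that recycles S-adenosylhomocysteine, had aerobic signals of 2269.9 and 2592 in expo, 1920.3 and 2431 in late expo, 355 and 523 in the diauxic shift, 1248 and 1212 in the post-diauxic phase, 771 and 958 in early SP and 113 and 318 in late SP. Its anaerobic signals were 2245 and 2238 in expo, 1968 and 1899.9 in end expo, 619 and 637 in early SP and 507 and 517 in late SP. SAH1 lay above anaerobic SP in aerobic early SP and below it in aerobic late SP. Its early SP difference was not called, and the late SP calls of SAM1 and SAH1 were lost without aerobic late SP culture 1.

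SAM4 and MHT1 encode homocysteine methyltransferases, which use S-adenosylmethionine and S-methylmethionine, respectively. SAM4 gave 153 and 178 in expo, 171 and 172 in late expo, 74.2 and 74.7 in the diauxic shift, 141 and 109 in the post-diauxic phase, 29.8 and 41.1 in early SP and 4.5 and 17.9 in late SP in aerobic cultures. In anaerobic cultures SAM4 gave 98.4 and 115 in expo, 107 and 110.3 in end expo, 6.2 and 4.9 in early SP and 1.4 and 3.2 in late SP, so that all 4 anaerobic SP signals lay under the floor of 12. From anaerobic end expo to early SP its signal fell at least 9.04-fold. MHT1 signals were 39.8 and 37.6 in aerobic late SP and 88.7 and 86.9 in anaerobic late SP. ADI1 encodes acireductone dioxygenase of the methionine salvage pathway. Aerobic signals of ADI1 were 388 and 471 in expo, 571 and 304 in late expo, 838 and 801 in the diauxic shift, 548 and 795 in the post-diauxic phase, 506 and 709.7 in early SP and 884 and 478 in late SP. Anaerobic signals of ADI1 were 89.1 and 103 in expo, 32.1 and 49.9 in end expo, 114 and 79.1 in early SP and 117 and 138 in late SP. No anaerobic signal of ADI1 exceeded 138, and no aerobic signal was below 304.

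Of the transporters, YCT1, SAM3 and MUP1 ranged most. YCT1 encodes a high-affinity cysteine transporter. In aerobic cultures YCT1 gave 165 and 114 in expo, 124 and 185 in late expo, 621 and 514 in the diauxic shift, 692 and 571 in the post-diauxic phase, 514 and 453 in early SP and 151 and 158 in late SP. In anaerobic cultures YCT1 gave 45.8 and 52.8 in expo, 24.6 and 40.1 in end expo, 1175 and 1238 in early SP and 1105 and 1147 in late SP. The anaerobic signals were the lowest of all in exponential growth and the highest of all in SP. SAM3, the S-adenosylmethionine permease, gave 119 and 107 in expo, 114 and 134 in late expo, 232 and 228 in the diauxic shift, 331 and 456 in the post-diauxic phase, 133 and 149 in early SP and 45.7 and 52.2 in late SP in aerobic cultures. Its anaerobic signals were 194 and 166 in expo, 144 and 109.8 in end expo, 79.6 and 94.7 in early SP and 58.8 and 52.2 in late SP. The post-diauxic phase was its highest and aerobic late SP its lowest condition. Another 4 probe sets report SAM3 and did not share its call for the step from the post-diauxic phase to early SP. MUP1, the high-affinity methionine permease, had aerobic signals of 271 and 463 in expo, 369.7 and 190.3 in late expo, 325 and 512 in the diauxic shift, 388 and 457 in the post-diauxic phase, 105 and 98.6 in early SP and 127 and 89.2 in late SP. MUP1 in anaerobic cultures gave 249 and 269 in expo, 135 and 124 in end expo, 91.2 and 49.6 in early SP and 66.5 and 62.6 in late SP. MUP1 was highest in the post-diauxic phase and low in SP of both regimes, and the cultures lay far apart in several phases. MUP3, a low-affinity methionine permease, had its lowest mean in aerobic early SP. MMP1, the S-methylmethionine permease, had its highest mean in the post-diauxic phase.

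The regulators took several courses. MET4, the activator, gave 41.5 and 63.4 in expo, 73.4 and 40 in late expo, 155 and 149 in the diauxic shift, 96.4 and 113 in the post-diauxic phase, 102 and 92.2 in early SP and 364 and 190.1 in late SP in aerobic cultures. Its anaerobic signals were 67.4 and 90.3 in expo, 38.6 and 64.6 in end expo, 66.7 and 78.9 in early SP and 59.9 and 54.1 in late SP. Both aerobic late SP signals of MET4 lay above all its other 18 signals. MET28, a cofactor of Met4, gave 324 and 308 in expo, 313 and 250.3 in late expo, 321 and 301 in the diauxic shift, 233 and 319.8 in the post-diauxic phase, 71.6 and 45.2 in early SP and 123 and 121 in late SP in aerobic cultures. In anaerobic cultures MET28 gave 275 and 266 in expo, 272 and 232 in end expo, 187 and 206 in early SP and 149 and 147 in late SP. Its lowest condition was aerobic early SP, as for several of the enzymes. MET30, the ubiquitin ligase subunit that acts on Met4, gave 139.9 and 138 in expo, 132 and 111 in late expo, 265 and 248 in the diauxic shift, 258 and 273 in the post-diauxic phase, 364 and 263 in early SP and 491 and 409 in late SP in aerobic cultures. Anaerobic signals of MET30 were 155 and 148 in expo, 143 and 128 in end expo, 249 and 237 in early SP and 190.2 and 173 in late SP. Aerobic late SP was its highest condition. The zinc finger proteins Met31 and Met32 recruit Met4 to DNA, and their transcripts differed in opposite directions between the regimes in late SP. MET31 signals were 96.7 and 75.8 in aerobic late SP and 26.9 and 35.2 in anaerobic late SP. MET32 signals were 53.5 and 68.4 in aerobic late SP and 114 and 132 in anaerobic late SP. CBF1, the basic helix-loop-helix partner, ranged over 0.88 on the log2 scale.

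Before glucose ran out, the shares of members that differed between the regimes were near those of all tested probe sets. Between aerobic and anaerobic expo, 7.96% of all tested probe sets were called (5.08% higher, 2.88% lower). Of the members 2 of 37 (5.41%) were called, both higher in aerobic cultures. These were ADI1 (log2 difference 2.16, standard error 0.34, adjusted p = 0.000438) and YCT1 (log2 difference 1.48, standard error 0.25, adjusted p = 0.000745). Between aerobic late expo and anaerobic end expo, 4 of 37 (10.8%) were called, all higher in aerobic cultures. Of all tested probe sets 9.05% were called (6.05% higher, 3% lower). ADI1 was higher by 3.38 and YCT1 by 2.27 on the log2 scale, SUL1 by 1.33 (adjusted p = 0.00211) and MHT1 by 1.06 (adjusted p = 0.00768). SUL1 and MHT1 lost their call without aerobic late expo culture 2 and with aerobic culture 1 alone, and MHT1 also without anaerobic end expo culture 1 and with quantile normalization. Fitted on the 4 arrays compared alone, limma called 0 members in either comparison. No member was called between late expo and expo of aerobic cultures (0% of all tested probe sets by limma, 1 member at an unadjusted p below 0.05) or between end expo and expo of anaerobic cultures (0.478% of all tested probe sets, including 0.0659% lower, 8 members at an unadjusted p below 0.05, all lower).

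At glucose exhaustion transcripts of many enzymes of the pathway fell in both regimes. From late expo to the diauxic shift of aerobic cultures, 12 of 37 members fell and 4 rose, while 32.1% of all tested probe sets were called (12.7% lower, 19.4% higher). The median of the members was -0.35 on the log2 scale, against 0.17 for all tested probe sets. In sulfate assimilation 6 of 10 fell (MET3, MET14, MET16, MET22, MET5 and MET1, median of the group -1.29), in the methyl cycle 4 of 6 (SAM1, SAM2, SAH1 and SAM4), and MET6 and CYS3 were the others. The deepest falls on the log2 scale were those of CYS3 (-2.53), SAH1 (-2.33), SAM1 (-2.32) and MET6 (-2.16). YCT1 (1.90), STR2 (1.49), MET4 (1.48, standard error 0.34, adjusted p = 0.00183) and MET30 (1.08) rose. SAM2 lost its call without aerobic late expo culture 1, MET30 without aerobic late expo culture 2 and with quantile normalization, and MET4 with aerobic culture 1 alone. SAM4 lost its call with a floor of 1, and its second probe set, shared with YMR321C, was not called (-0.49). Quantile normalization moved the share of higher among all called probe sets in this step from 60.4% to 46.7%.

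Anaerobic cultures passed from end expo to early SP in 1 step, in which 15 of 37 members fell and 5 rose. As 47.7% of all tested probe sets were called in this step, 20 of 37 members (54.1%) is a share near that of all probe sets, whereas 40.5% of members fell against 23.8% of all tested probe sets (23.9% rose). All 12 members that fell at the aerobic diauxic shift fell here too, which is 80.0% of the 15, and MET10, MET7 and MET8 fell in addition. The overlap of these steps over all tested probe sets was not computed, so the shared falls do not set the members apart. Apart from SAM4, the deepest falls on the log2 scale were those of MET14 (-2.58), MET22 (-2.45), SAM1 (-2.28) and CYS3 (-2.12). The probe set that SAM1 shares with SAM2 was not called in this step (-0.93). YCT1 rose by 5.26 (standard error 0.25, adjusted p = 2.92e-10), which is 38.4-fold. STR2 (1.17), MET32 (1.20), MMP1 (1.23) and ADI1 (1.25) also rose. SAM2 and ADI1 lost their call without anaerobic end expo culture 1. SAM2 also lost it without anaerobic early SP culture 2, and ADI1 without anaerobic early SP culture 1. With quantile normalization STR2, SAM2, MMP1 and MET32 were not called.

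The difference between these steps was tested as an interaction, a comparison added after the data had been seen. Its anaerobic end point was early SP, while aerobic cultures at the diauxic shift still had fermentation products to grow on. The interaction was called for 8 of 37 members (21.6%), a share near the 19.2% of all tested probe sets (12.6% positive, 6.64% negative). YCT1 rose less in aerobic cultures (log2 value -3.36, standard error 0.35, adjusted p = 1.22e-05). SAM4 (1.97), MET8 (1.96), SAM3 (1.43), MUP1 (1.56) and MET7 (1.09) had the more positive change in aerobic cultures, and MHT1 (-1.28) and MET13 (-1.02) the more negative one. The value of SAM4 is bounded by the floor in anaerobic SP, and 1 of the other probe sets of SAM3 was not called (0.25). Only YCT1, SAM4, SAM3 and MET8 stayed called without any 1 array. Without aerobic late expo culture 2 the count was 5, without MET13, MHT1 and MUP1, and with aerobic culture 1 alone it was 4, without MET8 as well. MUP1 and MET7 were also lost without single anaerobic arrays, MHT1 and MET13 without single diauxic shift arrays, and quantile normalization lost MET7 and MUP1 while it moved the share of positive values among all calls from 65.5% to 53.5%.

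From the diauxic shift to the post-diauxic phase, 5 of 37 members (13.5%) rose and none fell. Of all tested probe sets 11% were called (7.42% higher, 3.54% lower), a share near that of the members. SAM1 rose by 1.63 (adjusted p = 0.000198), SAH1 by 1.51, MET6 by 1.34, CYS3 by 1.03 and MHT1 by 1.01 on the log2 scale. Without diauxic shift culture 1 only SAM1 kept its call, and the other 4 missed the threshold. CYS3 also missed it without post-diauxic culture 2 and MHT1 without post-diauxic culture 1. The probe set that SAM1 shares with SAM2 rose by 0.76, which is not a call.

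Among the aerobic steps, entry into SP had the most members called, though the diauxic shift called more of all tested probe sets (32.1%). From the post-diauxic phase to early SP, 18 of 37 members fell and none rose, against 18.3% of all tested probe sets called (11.5% lower, 6.81% higher), with a median of -0.97 for the members and 0.01 for all tested probe sets. In the sulfate group 7 of 10 fell, among them MET16 (log2 change -2.95, standard error 0.22, adjusted p = 1.34e-07), MET14 (-2.93) and SUL2 (-2.61), besides MET22, MET5, MET1 and MET8. MET2 (-2.06) was called among the 6 genes of homocysteine and methionine synthesis. MET7 (-0.97, adjusted p = 0.00126) just missed the fold threshold, and was called lower with quantile normalization, with scaling to housekeeping genes, without post-diauxic culture 2 and without early SP culture 1. Both CYS3 (-1.97) and STR3 (-1.39) fell, as did SAM1 (-1.23), SAM2 (-2.02) and SAM4 (-1.83) of the methyl cycle and the permease genes MUP1 (-2.05), MUP3 (-2.03) and SAM3 (-1.47). Of the regulators, MET28 (-2.26) and MET32 (-1.33) fell. All 18 calls held without any 1 array, though the SAM3 call rests on 1 of its 5 probe sets.

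Comparing the regimes in early SP, 10 of 37 members were lower in aerobic cultures and 4 were higher, while 25.1% of all tested probe sets were called (9.02% lower, 16.1% higher). MET2 differed most, with a log2 difference of -2.61 (standard error 0.15, adjusted p = 2.46e-09). SUL2 (-2.42), MET16 (-2.00), MET28 (-1.79), SAM2 (-1.77), MET32 (-1.72), MUP3 (-1.37), MET14 (-1.35), YCT1 (-1.32) and CYS3 (-1.18) were also lower in aerobic cultures. ADI1 (2.66), SUL1 (2.18) and MET8 (1.84) were higher, and SAM4 was at least 2.92-fold higher. All 14 calls held without any 1 array. Quantile normalization moved the share of higher among all called probe sets from 64.1% to 51.7%, and kept these 14. The median of the members, -0.06, lay below that of all tested probe sets, 0.21. SAM2 was called by its own probe set but not by the one it shares with SAM1 (-0.72), and 2 of the other probe sets of SAM3 were called higher (1.05 and 1.68).

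In late SP, 16 of 37 members were called lower in aerobic cultures, 8 of which were still called lower with any 1 array left out. The 16 of 37 (43.2%) and the 5 called higher (13.5%) stood against 12.8% and 18.2% of all tested probe sets, and 31.1% called in either direction. The median log2 difference of the members was -0.76, against 0.08 for all tested probe sets. In sulfate assimilation 5 of 10 were lower and 1 higher. MET14 differed by -1.84 (standard error 0.25, adjusted p = 2.45e-05), MET16 by -1.36, MET3 by -1.35 (signals of 270.4 and 506 in aerobic late SP and 978 and 909 in anaerobic late SP), SUL2 by -1.30 and MET1 by -1.04 (signals of 103 and 145 in aerobic late SP and 277 and 228 in anaerobic late SP). SUL1 was higher by 1.67 (standard error 0.26, adjusted p = 8.87e-05). In homocysteine and methionine synthesis 4 of 6 were lower, namely MET13 (-2.17), MET2 (-1.85), MET6 (-1.46) and MET17 (-1.10). CYS3 (-2.22) was the only 1 of 4 transsulfuration genes called. In the methyl cycle 4 of 6 were lower, SAM2 (-1.86), SAH1 (-1.43), MHT1 (-1.18) and SAM1 (-1.11), and ADI1 was higher (2.36). YCT1 had the largest difference of all members, -2.86 (standard error 0.25, adjusted p = 2.77e-07). Among the regulators MET4 (2.21), MET31 (1.48) and MET30 (1.30) were higher and MET32 (-1.02) was lower.

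**Figure D3:**
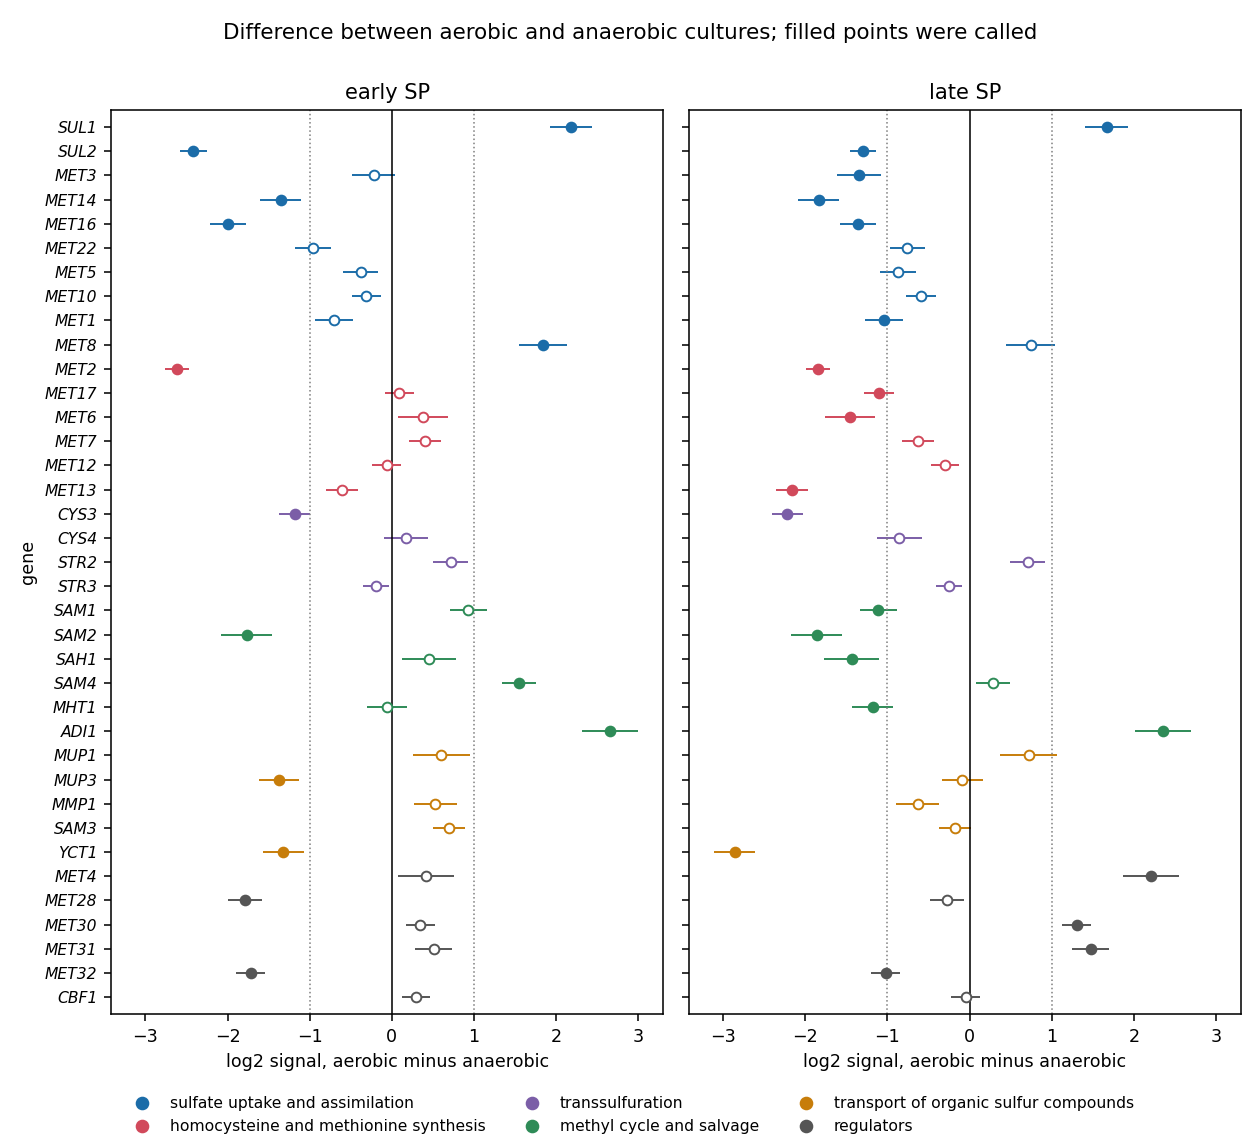
Log2 signal in aerobic minus anaerobic cultures for the 37 members in early SP (left) and late SP (right), coloured by role group; points are differences of the means of 2 cultures, bars their standard errors from limma, filled points were called, and dotted lines mark a 2-fold difference. In early SP 10 members were called lower and 4 higher in aerobic cultures, and in late SP 16 lower and 5 higher, with MET4, MET30 and MET31 among the latter.

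Of these 21 calls, 13 held without any 1 array (8 lower and 5 higher). Without aerobic late SP culture 1, MET3, MET16, MET1, MET17, MET6, SAM1, SAH1 and MET32 missed the threshold, all of them still lower, by 0.68 to 0.94 on the log2 scale, so that 13 were called. MET1 was also lost without anaerobic late SP culture 1 and MET32 without anaerobic late SP culture 2. Without aerobic late SP culture 2 none of the 21 was lost, and MET22 and MET5 joined them as lower. The deposited scaling, quantile normalization and scaling to 6 housekeeping genes each called the same 16 members lower and 5 higher, although quantile normalization moved the share of higher among all called probe sets from 58.7% to 44.2%. Both aerobic late SP arrays had a higher ratio of 3' to 5' signal of ACT1 than any of the other 18 arrays (1.20 to 2.03). The ratio was 2.68 in culture 1 and 2.10 in culture 2, against 1.64 and 1.62 in anaerobic late SP. The other transcripts with such probes did not set these 2 arrays apart. Their ratios in aerobic late SP cultures 1 and 2 were 5.20 and 6.81 for SPT15 (2.36 to 7.74 on the other 18 arrays) and 2.85 and 3.7 for SRB4 (2.70 to 11.2). Both aerobic late SP arrays had fewer features below 12 than the others, and DAN1 separated the aerobic cultures as given above. The part of these measures in the differences was not tested.

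The early and the late SP comparison use different arrays of the same cultures, so they are not independent. Of the members lower in aerobic cultures, 8 were called at both times, which is 80.0% of the 10 in early and 50% of the 16 in late SP. These were SUL2, MET14, MET16, MET2, CYS3, SAM2, YCT1 and MET32. ADI1 and SUL1 were higher at both times. MET4, MET30 and MET31 were called higher in late SP alone, and MET8 and SAM4 in early SP alone. The matching overlap over all tested probe sets was not computed.

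Within aerobic cultures, 13 of 37 members fell and 2 rose from early to late SP, against 24.4% of all tested probe sets called (16.4% lower, 8.01% higher). In homocysteine and methionine synthesis 4 of 6 fell, namely MET6 (-2.06), MET13 (-1.95), MET17 (-1.34) and MET7 (-1.31). In the methyl cycle 4 of 6 fell, namely SAH1 (-2.18), SAM1 (-2.04), MHT1 (-1.51) and SAM4 (-1.26). The others were YCT1 (-1.64), SAM3 (-1.53), MMP1 (-1.30), CYS3 (-1.08) and MET3 (-1.01). In sulfate assimilation MET3 was called, and without aerobic late SP culture 2 or with aerobic culture 1 alone SUL1 and MET5 were called too. MET4 rose by 1.44 (adjusted p = 0.00284) and MET28 by 1.10 (adjusted p = 0.000664). Of the 15 calls, 10 held without any 1 array. MET3, SAM4 and MET4 were lost without aerobic late SP culture 1, and MET3, CYS3 and MET28 without aerobic early SP culture 2. With aerobic culture 1 alone CYS3, MMP1 and MET28 were not called, and scaling to housekeeping genes lost MET3 and CYS3 and moved the share of higher among all called probe sets from 32.8% to 44.6%. A second probe set of SAM4, shared with YMR321C, was not called (-0.27). The probe set that SAM1 and SAM2 share was called lower (-1.35), although that of SAM2 alone was not called (0.07).

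From early to late SP of anaerobic cultures, limma called no member (0.412% of all tested probe sets, 0.396% lower and 0.0165% higher), 6 had an unadjusted p below 0.05, and SUL2 alone passed when anaerobic late SP culture 1 was left out. Of all calls in this step 4% were higher, and 25% with quantile normalization or scaling to housekeeping genes. The interaction between oxygen and this step, added after the data had been seen, was called for 16 of 37 members, 12 with the more negative and 4 with the more positive change in aerobic cultures, against 19.3% of all tested probe sets (11.2% and 8.08%). The change of SAM1 was more negative in aerobic cultures (-2.04, standard error 0.32, adjusted p = 0.000534), as were those of SAH1 (-1.89) and MET6 (-1.84), while that of MET4 was more positive (1.79, standard error 0.48, adjusted p = 0.014). Without aerobic late SP culture 1 this count was 9, without MET3, MET17, MET7, SAM4, MHT1, MUP3, MMP1 and MET4 and with MET16. Each of the other 7 SP arrays, left out alone, also lost calls. Leaving out anaerobic early SP culture 1 lost MET7, MHT1 and MUP3, and culture 2 lost MET3, CYS3, MHT1, MMP1 and MET4. Leaving out anaerobic late SP culture 1 lost MET3, MET7, CYS3, MHT1 and MMP1, and culture 2 lost SUL2, MET3, MHT1, MUP3 and MMP1. Leaving out aerobic early SP culture 1 lost MET3, MET7 and MUP3, culture 2 lost MET3, CYS3, MHT1 and MMP1, and leaving out aerobic late SP culture 2 lost MHT1 and MMP1. MET6, MET13, SAM1, SAH1, YCT1 and MET28 stayed called without any 1 array.

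**Figure D4:**
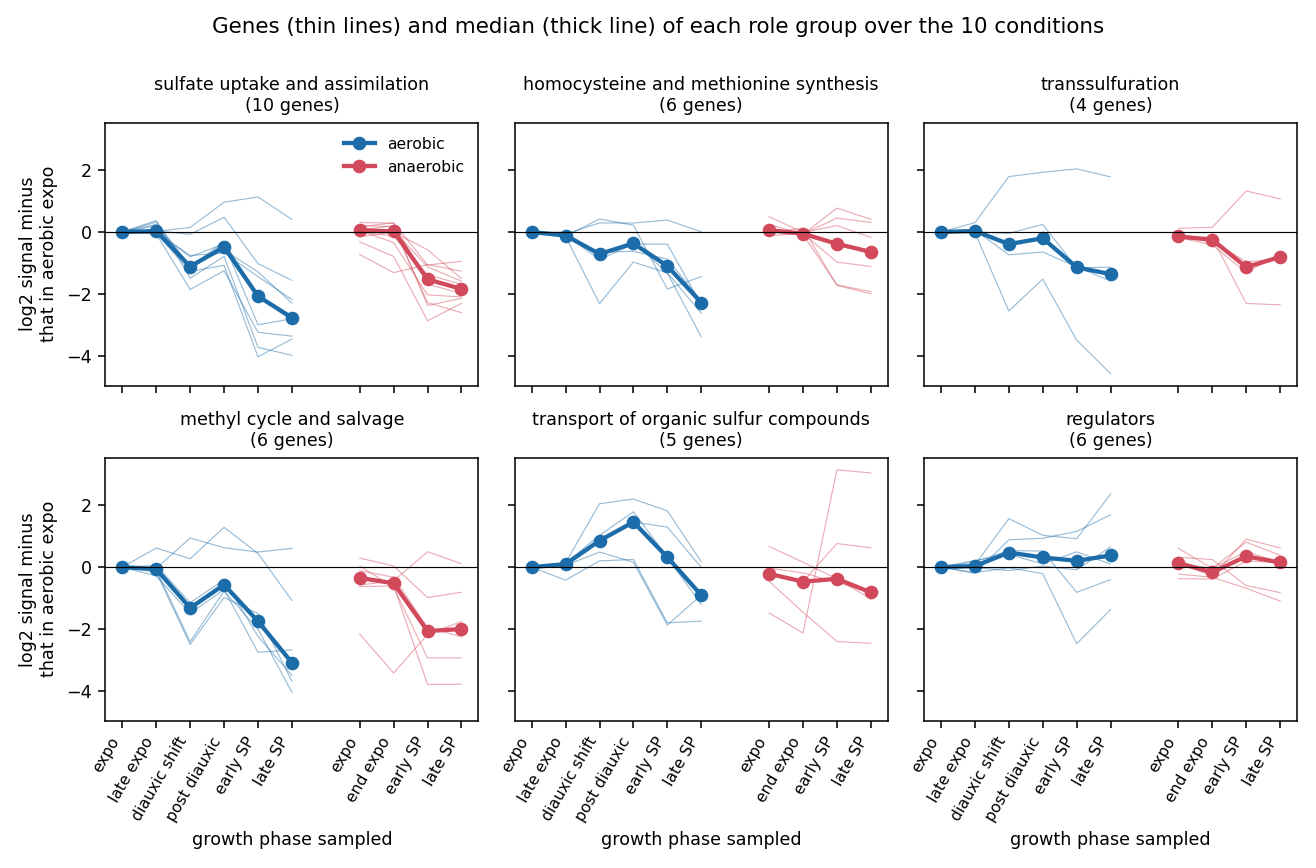
Log2 signal of each member relative to aerobic expo (thin lines) and the median of its role group (thick lines with points) over the aerobic (blue) and anaerobic (red) conditions. The median of the sulfate group lies at -2.77 in aerobic late SP and -1.84 in anaerobic late SP, that of homocysteine and methionine synthesis at -2.28 and -0.64, and that of the regulators at 0.38 and 0.15.

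Over the whole course from expo to late SP, the interaction between oxygen and growth phase was called for 19 of 37 members, 16 with the more negative and 3 with the more positive change in aerobic cultures, against 33.3% of all tested probe sets (14.2% and 19.1%). YCT1 had the largest interaction, -4.34 (standard error 0.35, adjusted p = 4.08e-07), its signals being lower in aerobic late SP and higher in aerobic expo than in the anaerobic samples. Among the negative values CYS3 followed with -2.33, MET14 with -1.78, MHT1 with -1.76 and MET2 with -1.75. MET4 (2.81), MET31 (1.80) and MET30 (1.43) were the 3 with the more positive change. Quantile normalization moved the share of positive values among all calls from 57.2% to 42.9% and called 15 of the 16 and the 3. Leaving out anaerobic expo culture 1 or aerobic expo culture 2 lost MET3, MET1, MET6, CYS4 and SAM1, and anaerobic late SP culture 1 lost MET3, MET1, MET6 and CYS4. Leaving out culture 2 of anaerobic expo or of anaerobic late SP lost MET6 and CYS4, and aerobic late SP culture 2 lost CYS4. Without aerobic late SP culture 1 the count was 11, and 10 stayed called without any 1 array, namely SUL2, MET14, MET2, MET13, CYS3, MHT1, YCT1, MET4, MET30 and MET31.

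As a description of shared courses, the log2 condition means of each member were correlated with the mean of the sulfate group over the 10 conditions. A member of that group was itself left out of the mean it was correlated with. All arrays share 1 scaling. Outside the sulfate group, MET7 (r = 0.96), CYS3 (0.95), SAM1 (0.93), CYS4 (0.92), MET17 (0.91) and SAM4 (0.91) ran closest to it. With the mean of all 10 sulfate genes, 20.5% of all tested probe sets had an r of at least 0.8, and their median r was -0.09. MET30 (-0.82), STR2 (-0.72), MET4 (-0.58), YCT1 (-0.55), MET12 (-0.55) and CBF1 (-0.53) had the most negative values. Within the sulfate group SUL1 had the lowest value, r = -0.24, followed by MET8 with 0.65.

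A list of 22 genes of neighbouring pathways was read beside the members. In late SP 7 of 22 were lower and 2 higher in aerobic cultures (12.8% and 18.2% of all tested probe sets), with a median log2 difference of -0.56. Lower in aerobic cultures were HOM3 (-1.45) and HOM2 (-1.11), aspartate kinase and the next enzyme of the homoserine branch. Also lower were GSH1 (-1.74), which makes the first intermediate of glutathione from cysteine, and TRX1 (-1.73) and TRR1 (-1.83), the thioredoxin and thioredoxin reductase that serve Met16. MXR2 (-1.26), a methionine sulfoxide reductase, and BDS1 (-1.20), a sulfatase, were the others. SSU1, the sulfite efflux pump, was higher in aerobic late SP, with signals of 1355 and 1321 in aerobic late SP and 301 and 289 in anaerobic late SP and a log2 difference of 2.18 (standard error 0.21, adjusted p = 9.11e-07). GCN4, the general activator of amino acid synthesis, was higher by 1.58. In early SP 4 of 22 were lower and 6 higher, against 9.02% and 16.1% of all tested probe sets, with SSU1 (1.83) and GCN4 (1.23) again higher, and MDE1 (1.98), an enzyme of methionine salvage, higher as well.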

How the data were processed

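RNA of 20 batch culture samples, from independent duplicate cultures, was hybridised to Affymetrix YG-S98 arrays. The authors scaled each array to a common average signal and deposited linear intensity values per probe set without a floor, and the software that summarised the probes is not given in the sources used here. Arrays have no read depth, and 2 cultures per condition limit the precision.

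Probe sets were named from the platform annotation, in which 6504 of the 9335 features had 1 symbol, 328 had several and 2503 were not listed. Of 6647 features that report protein-coding genes, 580 with a highest signal below 20 were left out, and 6067 were tested. For a gene with several probe sets, the one that matches no other gene was used, and of several such the one with the highest mean log2 signal. Signals below 12 were set to 12. One limma fit (version 3.58.1, R 4.3.3) of all 10 conditions on log2 signals gave the differences, standard errors (10 residual and 4.73 prior degrees of freedom) and Benjamini-Hochberg adjusted p-values of 15 comparisons, 2 of them added after the data were seen. The fit was tested on simulated data with known changes. Tables and plots were made in Python 3.11.15, with matplotlib 3.10.9 for the plots.

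Members, role groups, neighbouring genes and tests were chosen with earlier results of these data known. Signals on every array were given for the 3 members of each role group with the widest range, and for members singled out in a comparison. Culture numbers were taken from the labels, and within a regime the same culture was followed over time. Deviations from the condition means of same-numbered arrays had a median correlation of 0.12 over 15 aerobic pairs (lowest -0.55, highest 0.37) and 0.09 over 6 anaerobic pairs. Alternatives were other floors, filters and scalings, a fit on the compared arrays alone, culture as a fixed or random block, a spread that follows the signal, aerobic culture 1 alone and each array left out in turn.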

Additional observations from a re-analysis of the deposited data

Results flagged for a closer look

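These members are listed because limma's interaction test found that their change between 2 growth phases differed between aerobic and anaerobic cultures. Values are the log2 change in aerobic cultures minus that in anaerobic cultures, and each passed an adjusted p below 0.05 and a size of at least 1. With 2 cultures per condition no test for single outlying arrays was made.

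From expo to late SP, 19 members differed (51.4%, against 33.3% of all tested probe sets). The change was more negative in aerobic cultures for SUL2 (-1.45), MET3 (-1.18), MET14 (-1.78), MET16 (-1.31), MET1 (-1.04), MET2 (-1.75), MET17 (-1.22), MET6 (-1.21), MET13 (-1.67), CYS3 (-2.33), CYS4 (-1.03), SAM1 (-1.08), SAM2 (-1.57), SAH1 (-1.55), MHT1 (-1.76) and YCT1 (-4.34). It was more positive for MET4 (2.81), MET30 (1.43) and MET31 (1.80).

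At glucose exhaustion, where late expo to the diauxic shift was set against anaerobic end expo to early SP, 8 members differed. These are 21.6% of the members, a share near the 19.2% of all tested probe sets. More negative in aerobic cultures were MET13 (-1.02), MHT1 (-1.28) and YCT1 (-3.36). More positive were MET8 (1.96), MET7 (1.09), SAM4 (1.97), MUP1 (1.56) and SAM3 (1.43), where the anaerobic early SP signals of SAM4 lay under the floor of 12.

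From early to late SP, 16 members differed (43.2%, against 19.3% of all tested probe sets). The aerobic change was the more negative for MET3 (-1.13), MET17 (-1.19), MET6 (-1.84), MET7 (-1.03), MET13 (-1.56), CYS3 (-1.04), SAM1 (-2.04), SAH1 (-1.89), SAM4 (-1.26), MHT1 (-1.13), MMP1 (-1.16) and YCT1 (-1.54). It was the more positive for SUL2 (1.12), MUP3 (1.28), MET4 (1.79) and MET28 (1.51). The signals of SAM4 in anaerobic SP and of 1 culture in aerobic late SP lay under the floor. The comparisons at glucose exhaustion and from early to late SP were added after the data had been seen.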

How the results depend on the processing

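The number of called members was recomputed for 262 pairs of a comparison and a setting, of which 253 stayed within 1.5 times the reported count. These include comparisons in which the reported and the recomputed count were both 0, and a similar count need not hold the same genes. Fitted on the compared arrays alone, 0 members were called between the regimes in expo and 0 between late and end expo, where a fit of 4 arrays has fewer degrees of freedom. With each array left out in turn, the count was 13 to 23 for late SP between the regimes, 1 to 5 for the post-diauxic step, 0 to 1 for anaerobic late against early SP, 11 to 20 for the interaction from expo to late SP, 5 to 10 for that at glucose exhaustion and 9 to 16 for that from early to late SP. With aerobic culture 1 alone, chosen after seeing the data, the interaction at glucose exhaustion gave 4. In late SP the difference of MUP3, -0.09, was 0.23 without anaerobic late SP culture 1 and -0.40 without culture 2, and that of CBF1, -0.05, was -0.13 without culture 1 and 0.0303 without culture 2. Neither was called. Fitted on the late SP arrays alone, 18 of the 21 calls were kept, without MET6, SAM1 and SAH1. A filter at a highest signal of 100 left MET31 out.

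With culture number as a replicate block, 2 members were called in expo, 4 in late and end expo, 14 in early SP and 21 in late SP between the regimes, as without it. The consensus correlation of arrays of 1 culture was -0.003. Culture nested in regime added CYS4 to the interaction from early to late SP (17 called against 16), and the pairing changed no other call of a member. At aerobic late expo, whose deviations ran against those of expo, the crossed pairing, added after seeing the data, gave 0 and 16 calls in the steps around it, as the main fit did.

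The floor of 12 limits SAM4, whose anaerobic SP signals lay under it, to bounds. Its early SP difference was not called with a floor of 30, and its late SP difference was called with a floor of 1. Its interaction from early to late SP was called with neither a floor of 1 nor a floor of 30. Over all tested probe sets the median log2 difference was 0.21 between the regimes in early SP, 0.17 at the diauxic shift, -0.22 from early to late aerobic SP and 0.15 in the interaction from expo to late SP.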
